A study of Mus musculus with 12 samples.

Results

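Fabp1, Fabp2, Fabp4, Fabp5, Fabp7, Cd36, Lpl and Gpihbp1, genes for the binding and uptake of fatty acids, were followed across the cell classes of livers from neonatal mice with and without anemia. They were taken by symbol, as 8 of the 32285 genes counted in 206146 cells. Fabp4 was picked on its higher level in endothelial and immune cells of the anemic mice in these same data, and the others as members of the same families and pathway. Its values are therefore given as a description with no test, and the other 7 genes were tested.

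Single-cell RNA-seq libraries came from the livers of 12 C57BL6/J mice, with 1 library per mouse. In the 6 anemic mice, blood was drawn from the facial vein every 2 days from postnatal day P2 to P10, at 20 µL per g of body weight, and the hematocrit went from 45–60% to 20–24%. The 6 controls were given a needle stick every day without bleeding, and all livers were taken on P11. Pups were randomised within litters and nursed by the dam. By their Y-linked transcripts, 2 of the control and 4 of the anemic mice were male. Livers were dissociated with enzymes and collected by slow pelleting, so the share of a class among the cells also reflects what was recovered.

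Most fatty acids in blood travel as triglyceride in lipoproteins or bound to albumin. Lipoprotein lipase (Lpl) splits that triglyceride at the vessel wall, where GPIHBP1 (Gpihbp1), an anchor on capillary endothelial cells, holds it. CD36 (Cd36), a scavenger receptor at the plasma membrane, takes up long-chain fatty acids, and the fatty acid binding proteins carry them through the cytosol: L-FABP (Fabp1) is the abundant liver form, I-FABP (Fabp2) is known from the intestine, A-FABP (Fabp4) from adipocytes, macrophages and capillary endothelium, E-FABP (Fabp5) from skin and many other cells, and B-FABP (Fabp7) from glia and liver macrophages.

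In the GRCm38 assembly the genes lay at these places: Fabp1 (ENSMUSG00000054422, chr6:71199827-71205023, plus strand), Fabp2 (ENSMUSG00000023057, chr3:122895072-122899506, plus strand), Fabp4 (ENSMUSG00000062515, chr3:10204088-10208576, minus strand), Fabp5 (ENSMUSG00000027533, chr3:10012548-10016607, plus strand), Fabp7 (ENSMUSG00000019874, chr10:57784881-57788450, plus strand), Cd36 (ENSMUSG00000002944, chr5:17781690-17888801, minus strand), Lpl (ENSMUSG00000015568, chr8:68880491-68907448, plus strand) and Gpihbp1 (ENSMUSG00000022579, chr15:75596628-75599481, plus strand). Fabp4 and Fabp5 were neighbours on chromosome 3, 187480 bases apart, with 3 further family members around Fabp4: Fabp9 at a distance of 6804 bases, Pmp2 at 20158 bases and Fabp12 at 35632 bases. The gene model of Fabp2 was overlapped on the other strand by 4933405D12Rik.

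RefSeq promoter sequences (GRCm38.p6) were at hand for 4 of the 8 genes, and those of Fabp1 and Fabp2 are shown because both genes had their highest level in the hepatocyte-like cells and yet differed in the anemic mice. The stretch of Fabp1 is chr6:71199629-71199826, plus strand, from base -250 to base -53 before the RefSeq start. That of Fabp2 is chr3:122894822-122895071, plus strand, from base -250 to base -1. Capitals mark AGGTCA read on the minus strand in Fabp1, the core element bound by nuclear receptors such as PPARα and HNF4α, and CCAAT read on the minus strand in Fabp2.
Fabp1: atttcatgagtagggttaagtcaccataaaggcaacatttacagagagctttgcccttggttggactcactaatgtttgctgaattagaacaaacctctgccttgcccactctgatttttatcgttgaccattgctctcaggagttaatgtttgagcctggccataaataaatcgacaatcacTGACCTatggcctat
Fabp2: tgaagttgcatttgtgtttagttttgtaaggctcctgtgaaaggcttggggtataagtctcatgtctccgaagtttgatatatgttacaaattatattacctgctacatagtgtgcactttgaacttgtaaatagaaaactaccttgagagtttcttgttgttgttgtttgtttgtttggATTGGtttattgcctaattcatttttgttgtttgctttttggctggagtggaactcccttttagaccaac
The TATA box TATAAA, the receptor element AGGTCA and the CCAAT box were searched on both strands of the 250 bases before each start, and the hits did not overlap one another. AGGTCA occurred at -67 and -9 and TATAAA at -30 of Fabp1, the last 2 outside the printed stretch, and CCAAT occurred at -70 of Fabp2. Of 32851 RefSeq promoters, 14% held AGGTCA, 33.8% CCAAT and 12.4% TATAAA in a window of that length. These matches describe letters and not binding.

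The mice contributed 14184 to 21186 cells each, with 45751640 to 74344118 UMIs (molecules counted once by their barcode) in the kept cells. Between 4.53% and 5.44% of the barcodes of a library recurred in another library. Cells were grouped without the 8 genes, and 18 classes were named by their markers and are written as "-like", while 18182 cells (8.82%) stayed unnamed. Levels are given per mouse and class as CPM, the UMIs of a gene per 1000000 UMIs of that class. Because 3′ counts depend on the transcript, levels are compared between classes and mice for 1 gene and not between genes. The libraries of anemic mice 2 and 3 stood apart, with 4376 and 1983 monocyte-like cells against 252 to 476 in the others, so results that rest on them are also given without them. Classes with a large share of called doublets (droplets with more than 1 cell) were the cholangiocyte-, mesothelial- and smooth muscle-like cells (85.9% to 88.4%) and the stellate or fibroblast-like cells (65.9%).

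The UMIs of each gene lay mostly in 1 or a few classes. The hepatocyte-like cells, the parenchyma of the liver, carried 74.9% of all Fabp1 and 73.0% of all Fabp2 UMIs. Over the 12 mice their mean Fabp1 level was 8948 ± 1611 CPM (SD, n = 12), 26.9 times the next class, the B-like cells, and their Fabp2 level was 24.3 times that of the next. The sinusoidal endothelial-like cells, which line the liver capillaries, held 69.8% of the Fabp4, 56.4% of the Fabp5, 50.0% of the Cd36 and 73.3% of the Gpihbp1 UMIs. The macrophage-like cells, whose markers were those of Kupffer cells, held 83.1% of the Fabp7 and 64.5% of the Lpl UMIs.

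The order of the classes differed by gene. Over all 12 mice, for Fabp4 the sinusoidal (8486 CPM) and vascular endothelial-like cells (6984 CPM) were not apart by more than the spread between mice, and the stellate or fibroblast-like cells (3382 CPM) followed beyond it. The order of the 2 endothelial-like classes turned between the groups, since the control means were 3946 CPM in sinusoidal and 5680.3 CPM in vascular endothelial-like cells and the anemic means 13026 and 8287 CPM. For Fabp5 the sinusoidal (3052 CPM) and hepatocyte-like cells (2854 CPM) were not apart by more than that spread either, and here too the order turned, from 1317 and 2889 CPM in control to 4787 and 2819.5 CPM in anemic mice. Cd36 reached 659 CPM in sinusoidal, 504 in vascular, 362 in stellate or fibroblast-, 339.6 in monocyte- and 231 in macrophage-like cells, and in hepatocyte-like cells it stayed at 12.5 CPM. The steps between the first 4 of these classes were not beyond the spread either. The control and anemic means were 488 and 830.2 CPM in sinusoidal and 434 and 575 CPM in vascular endothelial-like, 255 and 470.1 CPM in stellate or fibroblast-like, 486 and 194 CPM in monocyte-like and 306 and 157 CPM in macrophage-like cells, so in control mice monocyte-like cells stood beside the sinusoidal endothelial-like cells. For Cd36 and Fabp4, the place of the stellate or fibroblast-like class rested on its cluster 37, where 95.8% of the cells were called doublets. Its other cluster, 36, had 37.0% called doublets and lay far lower. Cd36 averaged 30.6 CPM there over 6 controls and 30.1 CPM over 5 anemic mice, and Fabp4 averaged 261 and 615 CPM. Lpl was 1.87 times higher in macrophage- than in hepatocyte-like cells, in 12 of 12 mice. Gpihbp1 was 2.01 times higher in sinusoidal than in vascular endothelial-like cells, again in 12 of 12 mice. Fabp7 was 5.4 times higher in macrophage-like cells than in the next class, the smooth muscle-like cells.

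**Figure D1:**
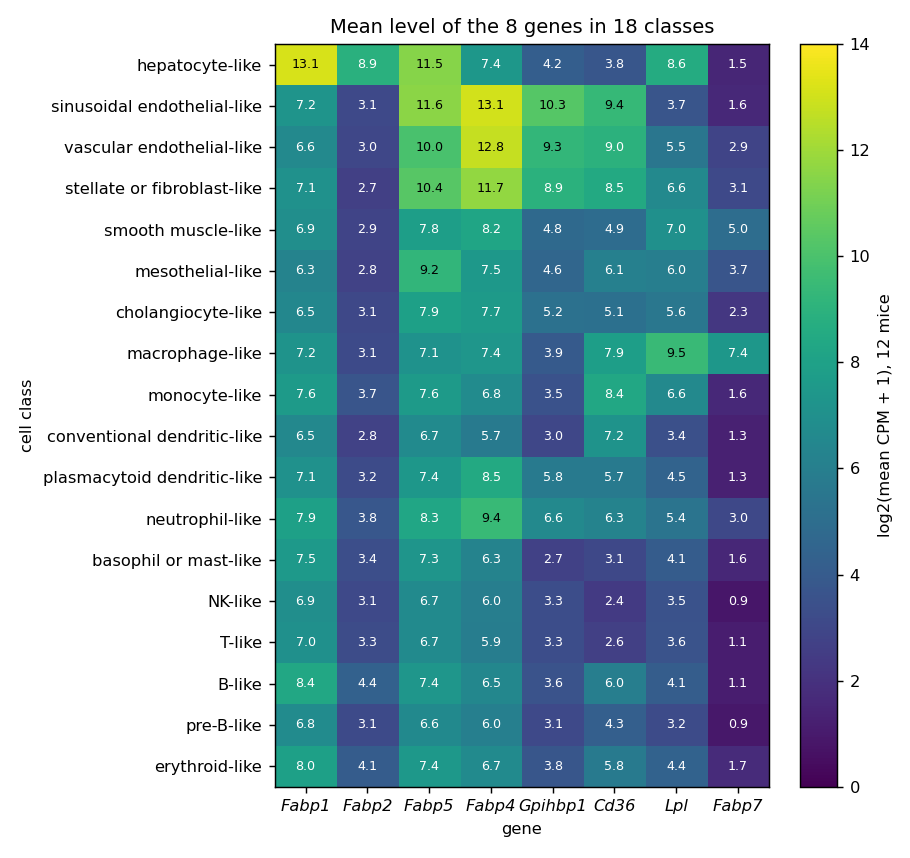
Level of each of the 8 genes (columns) in each cell class (rows), as the log2 of the mean CPM over 12 mice plus 1. Read down a column: Fabp1 and Fabp2 peak in hepatocyte-like cells, Fabp4, Fabp5, Cd36 and Gpihbp1 in sinusoidal endothelial-like cells, and Fabp7 and Lpl in macrophage-like cells. In control mice alone Fabp4 is highest in vascular endothelial-like (5680.3 CPM), Fabp5 in hepatocyte-like cells (2889 CPM), and Cd36 is near equal in sinusoidal endothelial-like (488 CPM) and monocyte-like cells (486 CPM).

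Low counts of the leading genes were found in every class. In droplet data, RNA set free by broken cells gives UMIs in cells that do not make it. For shares of cells with a UMI, each cell with at least 1000 UMIs was thinned to 1000 UMIs, and cells with fewer were left out. That left out most cells of hepatocyte-like clusters 13 and 16, whose median depths were 800.5 and 738 UMIs. After thinning, Fabp1 had a UMI in 93.6% ± 1.22 of the control hepatocyte-like cells (SD, n = 6), and in 16.4% ± 2.25 of the control NK-like cells, lymphocytes not known for L-FABP. Unthinned, the shares were 98.7% and 31.6%, at median depths of 1309.5 and 2046 UMIs per cell. Levels of Fabp1 and Fabp2 outside the hepatocyte-like cells, and of Fabp4 in lymphoid cells, are therefore read beside the markers of the class that leads.

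Across classes, 111 pairs of a gene and a class could be tested for the 7 genes other than Fabp4, and edgeR's quasi-likelihood test called 8 higher and 13 lower in anemic mice (adjusted p under 0.05 over all genes of a class), with 90 not called and 15 not tested for too few UMIs. The share of all genes called ran from 0.0301% in cholangiocyte-like to 48.1% in hepatocyte-like cells. It was 1.17% in plasmacytoid dendritic-, 1.06% in conventional dendritic-, 0.151% in erythroid-, 0.723% in basophil or mast-, 0.593% in mesothelial- and 0.196% in smooth muscle-like cells, where none of the 7 genes was called. Of the 21 calls, 11 were of Fabp2, each lower. Fabp5 was called higher in 4 classes, Cd36 in 2, Gpihbp1 in 1, Fabp1 was called once in each direction, Lpl lower in 1, and Fabp7 in none of its 10 tested classes. The p-values measure the spread between these mice.

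In sinusoidal endothelial-like cells, the carrier Fabp5, the receptor Cd36 and the lipase anchor Gpihbp1 were higher in anemic mice. Of the 7 tested genes, 3 were called higher (Fabp5, Cd36 and Gpihbp1) and 1 lower (Fabp2), while 18.4% of all genes tested in the class were called, 8.02% as higher and 10.4% as lower. Fabp4, the gene chosen for its rise, was at 3469.7, 3911 and 4781 CPM in control and 10906, 12739 and 15136 CPM in anemic mice (lowest, median and highest of 6). The lowest anemic mouse lay above the highest control, and the fitted log2 fold change was 1.84 (SE 0.12).

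Fabp5, its neighbour on chromosome 3, was at 1209, 1274 and 1627 CPM in control and 3911, 4770.1 and 5769 CPM in anemic mice. The groups did not overlap (log2 fold change 1.98, SE 0.12, edgeR adjusted p = 1.99e-07). Cd36 was at 451, 481 and 551 CPM in control and 697, 812 and 1026 CPM in anemic mice, and again every anemic mouse lay above every control (log2 fold change 0.89, SE 0.11, edgeR adjusted p = 8.14e-05). Gpihbp1, the anchor of the lipase, changed less, with 1063, 1095 and 1387 CPM in control and 1185, 1331 and 1597 CPM in anemic mice. Its groups overlapped, with control 3 alone at the top of the controls (log2 fold change 0.36, SE 0.094, edgeR adjusted p = 0.0169), and without TMM scaling, which corrects library sizes for the make-up of the counts, it was not called (log2 fold change 0.25, edgeR adjusted p = 0.0647).

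Without TMM scaling the median log2 fold change of all genes in this class moved from 0.0042 to -0.10, and the share of calls that were higher from 43.6% to 22.7%. Fabp5 and Cd36 were called higher under both scalings. The erythroid markers summed to 1047 to 2907 CPM in control and 3658 to 8069 CPM in anemic mice in this class, also without overlap, and their part in these results was not tested.

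More of these cells also had a UMI of each gene. At 1000 UMIs per cell, Fabp4 was seen in 87.7% ± 2.25 of control and 99.4% ± 0.368 of anemic cells and Gpihbp1 in 66.2% ± 3.27 and 71.2% ± 2.61. At the same depth, Fabp5 was seen in 62.0% ± 3.29 of control and 93.9% ± 2.39 of anemic sinusoidal endothelial-like cells and in 10.4% ± 1.17 and 8.00% ± 2.49 of the NK-like cells. Cd36 went from 37.7% ± 2.24 to 53.6% ± 5.60, against 0.349% and 0.452% in NK-like cells. Thinning left out 985 control and 910 anemic cells with fewer UMIs. Unthinned, the shares for Fabp5 were 87.1% and 97.7% and those for Cd36 74.6% and 86.1%, at median depths of 3497 and 4350 UMIs per cell.

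**Figure D2:**
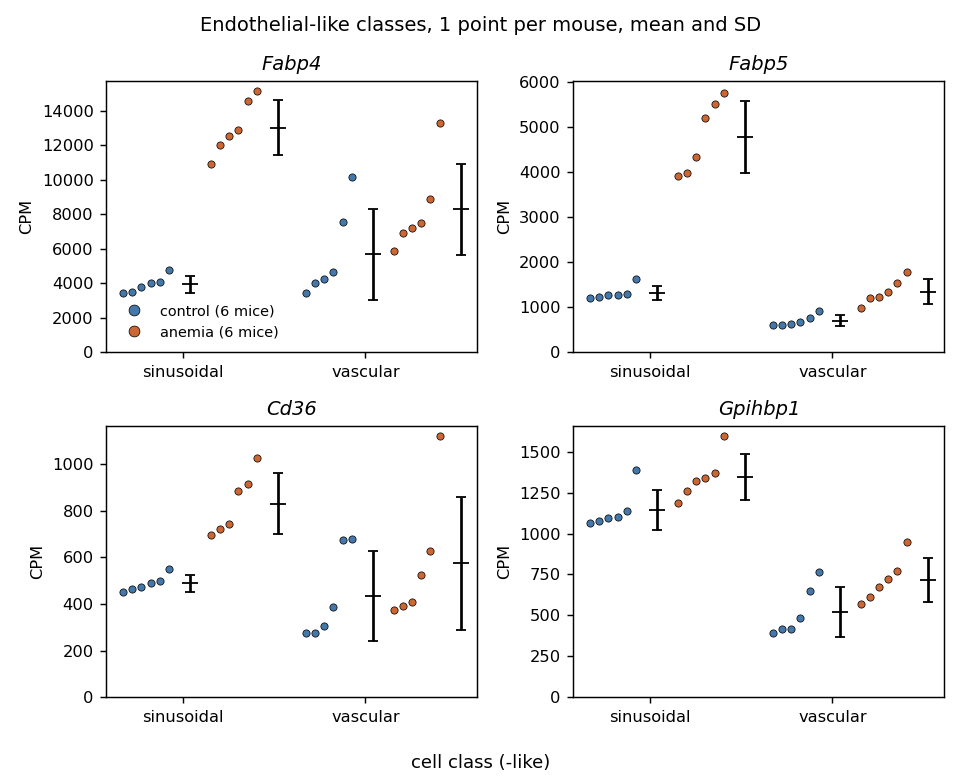
Levels in CPM of Fabp4, Fabp5, Cd36 and Gpihbp1 in sinusoidal and vascular endothelial-like cells of 6 control and 6 anemic mice. Each point is 1 mouse, points are placed in order of their value, and bars are the mean and SD: in sinusoidal endothelial-like cells the groups separate for Fabp4, Fabp5 and Cd36 and overlap for Gpihbp1.

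The class held several clusters in different proportions, and the differences were also present inside them. Cluster 4 made up 52.1% of control and 26.0% of anemic cells of the class, and cluster 5 28.5% of control and 52.7% of anemic cells of the class. Clusters 4, 5, 28 and 33 were fitted over all 12 mice, the last led by genes of the cell cycle. In that order, the log2 fold changes of Fabp5 were 1.97, 2.04, 2.16 and 2.02, those of Cd36 0.76, 0.88, 1.09 and 0.88 and those of Gpihbp1 0.36, 0.45, 0.54 and 0.40. All 12 were called higher, with a largest edgeR adjusted p of 0.0333, where 15.9%, 18.7%, 16.6% and 7.76% of the genes tested were called. Without anemic mice 2 and 3, Gpihbp1 in cluster 33 was no longer called (log2 fold change 0.35, edgeR adjusted p = 0.0589). In cluster 43, fitted on the 6 control and 4 anemic mice with at least 10 of its cells, Fabp5 (log2 fold change 1.78, SE 0.13, edgeR adjusted p = 1.14e-09) and Cd36 (log2 fold change 0.76, SE 0.16, edgeR adjusted p = 0.00399) were called higher and Gpihbp1 was not (log2 fold change 0.38, SE 0.13, edgeR adjusted p = 0.124), where 3.51% of all genes were called. The mean Fabp4 level was 3.02 to 4.41 times higher in anemic mice in each of the 5 clusters.

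Vascular endothelial-like cells, named by markers of larger vessels such as Vwf and Gja5, were fewer, with 2472 cells in 1 cluster. Its leading genes included Ccl21a and Nts beside Gja5 and Rspo3, and whether it held only cells of larger blood vessels was not tested. Of the 7 genes tested in this class, Fabp5 was called higher and Fabp2 lower, where 0.763% of all genes tested were called, 0.5% higher and 0.262% lower. Fabp5 was at 597, 649 and 919 CPM in control and 987, 1287 and 1781 CPM in anemic mice, with no overlap of the groups (log2 fold change 1.01, SE 0.14, edgeR adjusted p = 0.00265). Doublets were called for 32.9% of these cells. In the cells whose share of hepatocyte and sinusoidal endothelial marker UMIs was at or below the median of their mouse, Fabp5 was not called (log2 fold change 0.36, edgeR adjusted p = 0.795). Cd36 was at 277, 348 and 679 CPM in control and 375, 465 and 1120.2 CPM in anemic mice, with 1 anemic mouse far above the others, and was not called (log2 fold change 0.47, SE 0.30, edgeR adjusted p = 0.615). Gpihbp1 was not called either (log2 fold change 0.52, SE 0.17, edgeR adjusted p = 0.222). Fabp4 was at 3429, 4468 and 10144 CPM in control and 5883, 7363 and 13296 CPM in anemic mice, so the groups overlapped (fitted log2 fold change 0.61, SE 0.26).

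The sizes of the differences in both endothelial classes were then compared over the same mice, in a fit where 1.26% of all genes differed. Fabp5 had the larger log2 fold change in sinusoidal endothelial-like cells (difference 0.97, SE 0.088, edgeR adjusted p = 4.45e-06). Cd36 (difference 0.42, SE 0.27, edgeR adjusted p = 0.562) and Gpihbp1 (difference -0.19, SE 0.14, edgeR adjusted p = 0.609) were not shown to differ. Against the hepatocyte-like cells, where 41.4% of all genes differed, the effect on Fabp5 was larger in the sinusoidal cells (difference 1.78, SE 0.19, edgeR adjusted p = 9.47e-07). Against the macrophage-like cells, where 6.18% of all genes differed, those on Fabp5 (difference 1.47, SE 0.13, edgeR adjusted p = 3.38e-05) and Cd36 (difference 1.83, SE 0.29, edgeR adjusted p = 0.00302) were larger.

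Over the hepatocyte-like class as a whole the main carrier and the lipase went opposite ways, though neither was called within its clusters. Of 7 tested genes, Fabp1 was called higher and Fabp2 and Lpl lower, but 48.1% of all genes tested in this class were called, 23.1% higher and 25.1% lower, so 3 of 7 was near the background. Fabp1 was at 6746, 7937 and 8783 CPM in control and 7432, 10362 and 11792 CPM in anemic mice, with overlap (log2 fold change 0.53, SE 0.11, edgeR adjusted p = 0.000615). Fabp2 was at 461, 567 and 659 CPM in control and 311, 403 and 477 CPM in anemic mice, with a small overlap (log2 fold change -0.33, SE 0.11, edgeR adjusted p = 0.0204). Lpl was at 439, 476 and 549 CPM in control and 208, 299 and 314 CPM in anemic mice, and every anemic mouse lay below every control (log2 fold change -0.59, SE 0.10, edgeR adjusted p = 0.000168). Fabp5, a further carrier found in this class, was at 2388, 2711 and 3879 CPM in control and 1675, 2969 and 3383 CPM in anemic mice and was not called (log2 fold change 0.13, SE 0.16, edgeR adjusted p = 0.549). Without TMM scaling the median log2 fold change of all genes in this class moved from -0.057 to -0.28, and the share of calls that were higher from 47.9% to 26.4%. The 3 calls stood, with Fabp1 at 0.31, Fabp2 at -0.55 and Lpl at -0.81, and Fabp5 turned to -0.097. In cells with at most 10% mitochondrial UMIs Fabp1 was not called (log2 fold change 0.12, edgeR adjusted p = 0.5), and Fabp2 was not called with called doublets left out (log2 fold change -0.30, edgeR adjusted p = 0.0744) or at a coarser clustering (log2 fold change -0.034, edgeR adjusted p = 0.834). The markers of erythroid cells summed to 1842 to 7272 CPM in control and 9015 to 28219 CPM in anemic mice in this class, and their part in the results was not tested.

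The hepatocyte-like cells fell into 5 fitted clusters whose shares differed between the groups, and the genes behaved differently inside them. Cluster 24 took 24.1% of control and 8.91% of anemic cells of the class, and cluster 16 took 14.5% of control and 29.6% of anemic cells of the class. Fabp2 was called lower in all 5 clusters, where 8.22%, 5.67%, 6.75%, 4.84% and 4.86% of all genes tested were called in clusters 13, 16, 20, 24 and 34. In that order its log2 fold changes were -0.89, -1.09, -1.02, -1.16 and -1.11, with a largest edgeR adjusted p of 1.53e-05. The anemic means were 0.440 to 0.481 of the control means, against 0.718 over the class as a whole. In cluster 16, for example, Fabp2 ranged over 1260.2 to 1648 CPM in control and 492 to 797 CPM in anemic mice, and in cluster 24 over 163 to 191 CPM in control and 63.7 to 99.9 CPM in anemic mice. The groups did not overlap in any of the 5 clusters.

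Fabp1 and Lpl, by contrast, were called in none of these clusters. Fabp1 had log2 fold changes of 0.16, -0.12, -0.076, -0.26 and -0.34, so the rise over the class was not found within its clusters. Lpl had log2 fold changes of -0.019, -0.12, -0.02, 0.16 and 0.042, and its level differed mostly between clusters, with control means from 30.3 CPM in cluster 34 to 738 CPM in cluster 24. The control means of Fabp1 ran the other way, from 3065 CPM in cluster 24 to 18104 CPM in cluster 34. Fabp5 had log2 fold changes of -0.28, -0.44, -0.42, -0.51 and -0.56, and the last of these, in cluster 34, was called lower (edgeR adjusted p = 0.0357). Without anemic mice 2 and 3 it was not (edgeR adjusted p = 0.0711).

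**Figure D3:**
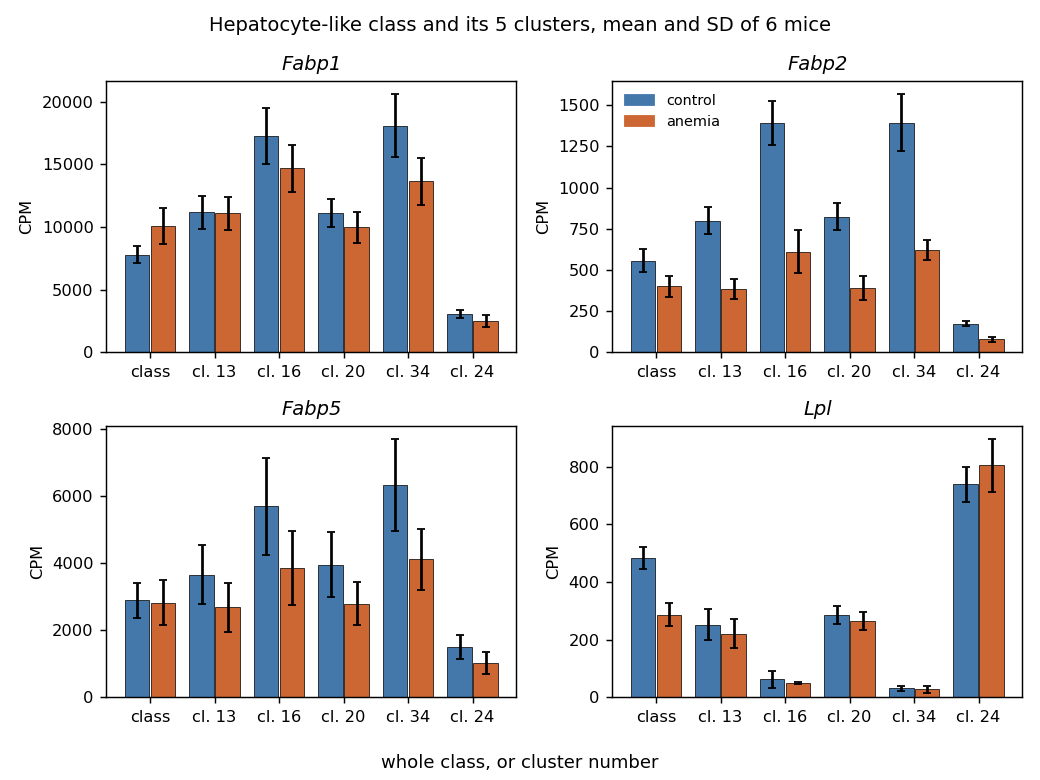
Levels in CPM of Fabp1, Fabp2, Fabp5 and Lpl in the 5 hepatocyte-like clusters of control and anemic mice, with bars for the mean and whiskers for the SD of 6 mice. Fabp2 is lower in anemic mice in every cluster, while Lpl differs between clusters more than between groups.

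Outside the hepatocyte-like cells Fabp2 was lower as well. It was called lower in 10 of the 13 other classes where it could be tested. In monocyte-like cells, where 0.68% of all genes were called and 0.308% called lower, it was at 15.5, 19.1 and 21.6 CPM in control and 2.20, 5.41 and 9.15 CPM in anemic mice (log2 fold change -2.08, SE 0.31, edgeR adjusted p = 0.00757). In pre-B-like cells, with 2.1% of genes called and 1.25% called lower, it was at 9.98, 10.8 and 16.4 CPM in control and 1.84, 2.78 and 8.32 CPM in anemic mice (log2 fold change -1.80, SE 0.25, edgeR adjusted p = 0.000597). The groups did not overlap in either class. The remaining calls were log2 fold changes of -2.33 in T-like, -2.16 in NK-like, -1.80 in vascular endothelial-like, -1.75 in neutrophil-like, -1.72 in stellate or fibroblast-like, -1.64 in macrophage-like, -1.47 in B-like and -1.32 in sinusoidal endothelial-like cells. The shares of all genes called lower were 0.142%, 0.347%, 0.262%, 0.214%, 2.56%, 1.25%, 0.383% and 10.4% in the same order, and those called in either direction were 0.18%, 0.534%, 0.763%, 0.814%, 6.18%, 2.68%, 0.791% and 18.4%. In that order, Fabp2 UMIs summed over the 6 control mice were 107, 172, 76, 223, 172, 707, 486 and 755. Over the 6 anemic mice they were 25, 38, 29, 100, 22, 182, 157 and 233, so several of these fold changes rested on few UMIs. Leaving out 1 mouse in turn, the call was lost in 7 of 12 fits in vascular endothelial-like, 4 in stellate or fibroblast-like, 2 in B-like and 1 in neutrophil-like cells, and at Leiden resolution 1 in macrophage- and NK-like cells (edgeR adjusted p = 0.0739 and 0.0803). In T-like cells it was lost among the cells with fewer hepatocyte and sinusoidal endothelial marker UMIs (edgeR adjusted p = 0.0841). Without anemic mice 2 and 3 Fabp2 was not called in vascular endothelial-like (log2 fold change -1.72, edgeR adjusted p = 0.0713) and stellate or fibroblast-like cells (log2 fold change -1.63, edgeR adjusted p = 0.0500).

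Markers of hepatocytes moved with these levels. Their sum, over 10 of 10 detected markers, was 2648 to 3569.8 CPM in control and 647 to 2198 CPM in anemic mice in pre-B-like cells and 2169 to 4166 CPM in control and 443 to 2507 CPM in anemic mice in sinusoidal endothelial-like cells. The ratio of Fabp1 to Fabp2 UMIs within the hepatocyte-like cells was 14.2 (range 11.9 to 16) in control and 27.2 (range 15.6 to 33.5) in anemic mice. In pre-B-like cells it was 11.8 and 21.9, in monocyte-like cells 12.3 and 25.7, and in sinusoidal endothelial-like cells 15.6 and 32.5. Over the 18 classes it ran from 10.4 to 17.7 in control and from 15.2 to 61.1 in anemic mice. The ratio of Fabp2 UMIs to the summed hepatocyte markers was 0.00369 and 0.00341 in hepatocyte-like cells, 0.00318 and 0.00187 in macrophage-like and 0.00379 and 0.00253 in pre-B-like cells, in control and anemic mice. Fabp1 was at 126, 135 and 175 CPM in control and 22.7, 72.5 and 144 CPM in anemic mice in pre-B-like cells and was called lower (log2 fold change -0.94, SE 0.24, edgeR adjusted p = 0.0468), a call that was lost in 10 of 12 repeats without 1 mouse. The part of hepatocyte RNA in the lower Fabp2 and Fabp1 of these classes was not tested.

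Fabp4 was higher on average in anemic mice in 18 of 18 classes, with groups that did not overlap in 11. Because Fabp4 was picked for its rise in endothelial and immune cells of these mice, both counts only describe that choice. The share of all genes with such groups is not given beside them. The fitted log2 fold changes ran from 0.61 in vascular to 1.84 in sinusoidal endothelial-like cells. In macrophage-like cells Fabp4 was at 72.4, 81.5 and 93.8 CPM in control and 212, 245 and 288 CPM in anemic mice. In hepatocyte-like cells it was at 72.0, 80.4 and 138 CPM in control and 144, 257 and 327 CPM in anemic mice. Among the lymphoid classes, the pre-B-like cells were at 30.3, 37.3 and 42.3 CPM in control and 77.4, 94.3 and 105 CPM in anemic mice. Neutrophil-like cells were at 241, 343 and 407 CPM in control and 453, 929.5 and 2201 CPM in anemic mice, with 1 anemic mouse above the rest. Their means were 328 and 1047 CPM, and with called doublets left out they were 45.9 and 141 CPM. Cluster 58, with 347 cells and 99.7% called doublets, had control and anemic means of 2581 and 8386 CPM, over the 6 and 5 mice with at least 10 of its cells. The fitted log2 fold changes were 0.80 in monocyte-, 1.19 in plasmacytoid dendritic-, 1.59 in conventional dendritic-, 1.32 in B-, 1.48 in NK-, 1.25 in T- and 1.47 in erythroid-like cells. The levels outside the endothelial and stellate or fibroblast-like classes lay far below the 3946 and 13026 CPM of the sinusoidal endothelial-like cells. Within the stellate or fibroblast-like class (means 1584 and 5179 CPM), cluster 36 was also far below them, at 261 and 615 CPM. These means cover the 6 control and 5 anemic mice with at least 10 of its cells. Called doublets were 65.9% of the class and 37.0% of the cluster. At 1000 UMIs per cell, 7.39% ± 0.515 of control and 17.6% ± 2.04 of anemic macrophage-like cells had a Fabp4 UMI, and 3.69% ± 0.325 and 8.10% ± 1.15 of the pre-B-like cells, which are not known for A-FABP. The median depths were 4897 and 5132 UMIs for macrophage-like and 1670 and 1795 UMIs for pre-B-like cells.

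Set against the markers of sinusoidal endothelium, the Fabp4 counts of some classes stood in a similar proportion and those of others did not. In sinusoidal endothelial-like cells the ratio of Fabp4 UMIs to the summed UMIs of 10 such markers was 0.331 (range 0.289 to 0.397) in control and 1.20 (range 0.905 to 1.55) in anemic mice. In macrophage-like cells it was 0.363 (range 0.315 to 0.392) in control and 1.14 (range 0.787 to 1.55) in anemic mice. In pre-B-like cells it was 0.336 (range 0.283 to 0.386) in control and 1.05 (range 0.823 to 1.26) in anemic mice. The ranges of both classes overlapped those of the sinusoidal endothelial-like cells, in each group. In hepatocyte-like cells the ratio was higher than in sinusoidal endothelial-like cells in anemic mice (0.525 and 2.65), with ranges that overlapped in controls, and in NK-like cells it was higher in control mice (0.598 and 2.43), with ranges that overlapped in anemic mice. In B-like cells it was lower in both groups (0.166 and 0.472), and in conventional dendritic-like cells as well (0.0379 and 0.160). The marker sum was 198 to 244 CPM in control and 179.7 to 269 CPM in anemic mice in macrophage-like cells. In pre-B-like cells it was 102 to 118 CPM in control and 78.0 to 100.5 CPM in anemic mice, with 10 of 10 markers detected in both classes. In vascular endothelial-like cells the ratio of Fabp4 to these markers was 1.59 in control and 2.24 in anemic mice. Adipocyte markers, which define the cells A-FABP is named for, summed to at most 10.5 CPM in any class and mouse. How much of the Fabp4 in immune cells came from endothelial RNA was not tested.

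**Figure D4:**
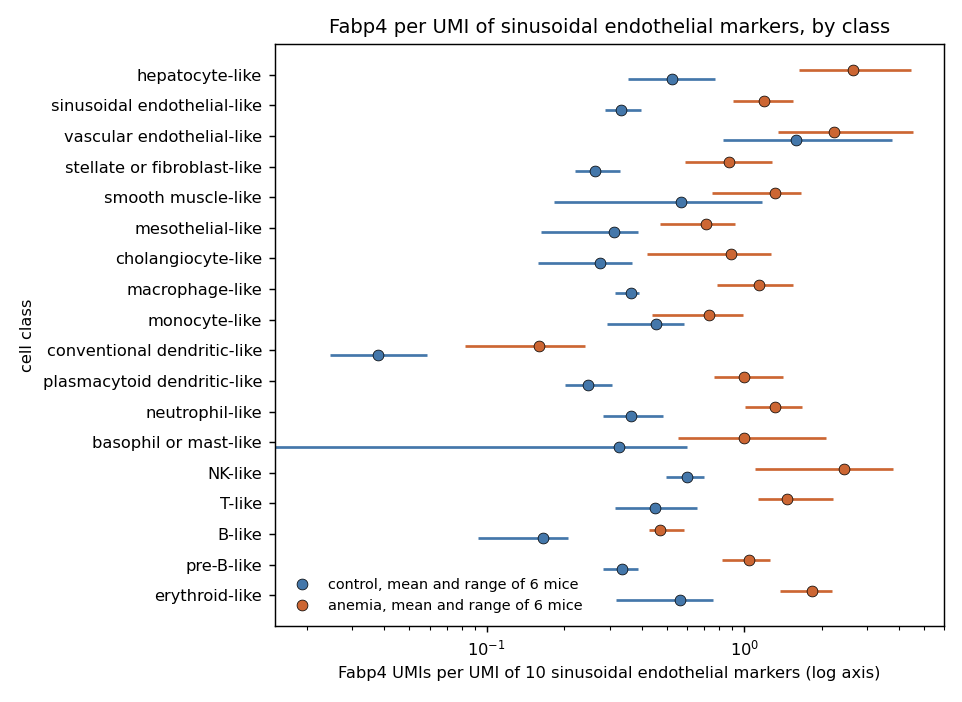
Ratio of Fabp4 UMIs to the summed UMIs of 10 sinusoidal endothelial markers by class, on a log axis, with points for the mean and lines for the range of 6 mice per group (the basophil or mast-like control range reaches 0, off the axis). The sinusoidal endothelial-like cells go from 0.331 to 1.20, and macrophage- and pre-B-like cells sit close to them in both groups. The means of B- and conventional dendritic-like cells lie below them and those of hepatocyte- and NK-like cells above.

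Cd36 did not follow the sinusoidal endothelial-like cells in monocyte- and macrophage-like cells. In monocyte-like cells Cd36 was at 395, 478 and 593 CPM in control and 64.2, 217 and 306 CPM in anemic mice. Every anemic mouse lay below every control, but the fit over the class did not call it (log2 fold change -1.32, SE 0.31, edgeR adjusted p = 0.059), while DESeq2 did (adjusted p = 0.00551). In the cells of monocyte cluster 11, which made up 96.7% of control and 53.2% of anemic cells of the class, Cd36 was called lower, where 1.46% of all genes were called (log2 fold change -1.29, SE 0.24, edgeR adjusted p = 0.0116). Without anemic mice 2 and 3, which gave most monocyte-like cells, it was lower as well, both in the cluster (log2 fold change -0.93, edgeR adjusted p = 0.00022) and in the class (log2 fold change -0.91, edgeR adjusted p = 0.000414). Cluster 17 took 3.31% of monocyte-like cells in control and 46.8% in anemic mice, of which 81.7% came from anemic mouse 2. The share of monocyte-like cells with a Cd36 UMI at 1000 UMIs per cell was 28.8% ± 4.17 in control and 13.4% ± 6.34 in anemic mice, far above the NK-like cells given above. Between sinusoidal endothelial- and monocyte-like cells, where 3.37% of all genes differed, the effects on Cd36 differed (difference 2.33, SE 0.36, edgeR adjusted p = 0.00182).

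In macrophage-like cells Cd36 was at 224, 295 and 428 CPM in control and 52.7, 150.0 and 236 CPM in anemic mice, with overlap, and was not called over the class (log2 fold change -0.91, SE 0.27, edgeR adjusted p = 0.0759), though DESeq2 called it (adjusted p = 0.0198). The class lay in different clusters in the groups. Cluster 3 took 60.1% of control and 40.1% of anemic cells of the class, cluster 10 27.5% of control and 32.3% of anemic cells of the class and cluster 27 2.27% of control and 21.8% of anemic cells of the class, and 60.3% of the cells of cluster 27 came from 1 mouse. In cluster 27 Cd36 ranged over 318 to 694 CPM in control and 53.8 to 756 CPM in anemic mice, with overlap. It was called lower in cluster 3, the largest cluster, led by the Kupffer cell genes Clec4f and Vsig4 (log2 fold change -1.02, SE 0.21, edgeR adjusted p = 0.0145), and not in cluster 10 of the same class (log2 fold change -0.53, edgeR adjusted p = 0.567). In these clusters 3.02% and 0.599% of all genes were called. Without anemic mice 2 and 3, Cd36 in cluster 3 was called lower too (log2 fold change -0.87, edgeR adjusted p = 0.0104). None of the 7 tested genes but Fabp2 was called over the macrophage-like class. Lpl, at its highest in this class, was at 681, 759.7 and 888 CPM in control and 467, 657 and 885 CPM in anemic mice (log2 fold change -0.15, SE 0.13, edgeR adjusted p = 0.522). Fabp7, whose counts lay mostly in this class, was at 147, 169 and 186 CPM in control and 63.4, 218 and 240.4 CPM in anemic mice (log2 fold change 0.10, SE 0.29, edgeR adjusted p = 0.876), and the anemic mice spread over a wider range than the controls. At 1000 UMIs per cell, 13% ± 1.39 of control and 13.2% ± 6.00 of anemic macrophage-like cells had a Fabp7 UMI, against 0.0933% and 0.0413% of NK-like cells. Fabp5 was not called (log2 fold change 0.47, SE 0.12, edgeR adjusted p = 0.0563).

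**Figure D5:**
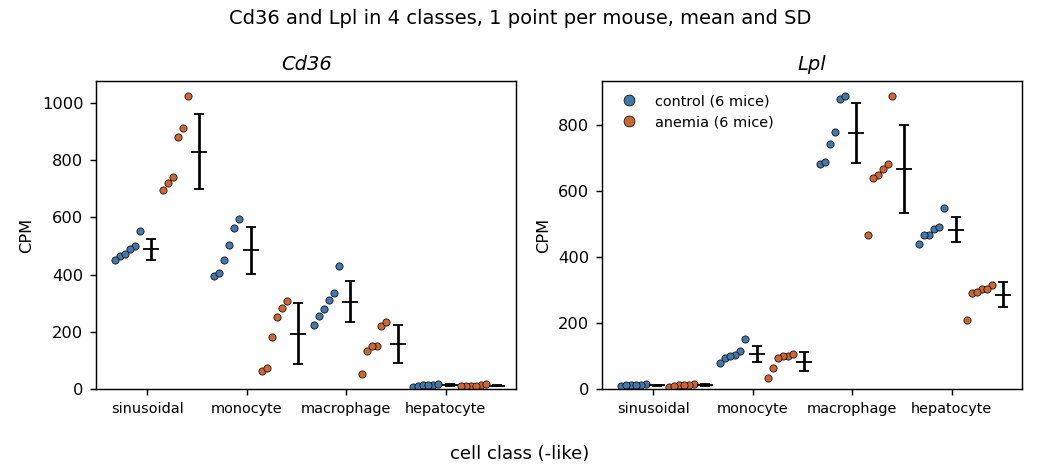
Levels in CPM of Cd36 and Lpl by class in 6 control and 6 anemic mice, with a point for each mouse, in order of value, and bars for the mean and SD. Cd36 is higher in anemic mice in sinusoidal endothelial-like and lower in monocyte-like cells, and Lpl is lower in hepatocyte-like cells without overlap.

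In stellate or fibroblast-like cells, the pericytes and matrix cells of the liver, Fabp5 was called higher, with 492, 529 and 599 CPM in control and 1499, 2139 and 2527 CPM in anemic mice (log2 fold change 2.09, SE 0.12, edgeR adjusted p = 1.19e-08). Cd36 was called higher too, with 222, 247 and 306 CPM in control and 388, 469 and 552 CPM in anemic mice (log2 fold change 0.97, SE 0.12, edgeR adjusted p = 2.8e-05), where 6.18% of all genes tested were called and 3.63% called higher. Cluster 37, with 95.8% called doublets, had control and anemic means of 605 and 2447 CPM for Fabp5 and 304 and 549.6 CPM for Cd36, and both were called higher there, where 6.71% of all genes were called (Fabp5 log2 fold change 2.12, edgeR adjusted p = 5.51e-09, Cd36 log2 fold change 0.95, edgeR adjusted p = 1.32e-05). Cluster 36, with 37.0% called doublets, was fitted on the 6 control and 5 anemic mice with at least 10 of its cells, and 2.43% of all genes were called. Fabp5 went from a mean of 209 to 341 CPM there and was called higher (log2 fold change 0.85, SE 0.20, edgeR adjusted p = 0.0215), while Cd36, at 30.6 and 30.1 CPM, was not called (log2 fold change 0.11, SE 0.32, edgeR adjusted p = 0.957). The sinusoidal endothelial markers summed to 5232 to 6525 CPM in control and 5035 to 7152 CPM in anemic mice in the class, with 10 of 10 detected, and the erythroid markers to 1053 to 4334 CPM in control and 1512 to 9643 CPM in anemic mice. The part of these markers' RNA in the calls was not tested. In the cells at or below the median share of hepatocyte and sinusoidal endothelial marker UMIs, Cd36 was not called (log2 fold change 0.62, edgeR adjusted p = 0.372).

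Neutrophil-like cells had Fabp5 at 178, 200.1 and 217 CPM in control and 248, 403 and 624 CPM in anemic mice, with no overlap, and it was called higher (log2 fold change 1.05, SE 0.18, edgeR adjusted p = 0.0132), where 0.814% of all genes were called and 0.6% called higher. With called doublets left out its direction turned, at a log2 fold change of -0.23 (edgeR adjusted p = 0.52). The erythroid markers summed to 1165 to 11242 CPM in control and 11031 to 24692 CPM in anemic mice, and their part was not tested.

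Further genes of fatty acid handling were taken from 5 lists. For the sinusoidal endothelial-like cells the counts stand beside a background of 18.4% of all genes called, 8.02% higher and 10.4% lower. In these cells the list of lipase partners and lipoprotein uptake had 5 of 14 tested genes called higher and 1 lower, with a median log2 fold change of 0.026 against 0.0042 over all genes. Angptl4, a secreted inhibitor of lipoprotein lipase, went from 7.05 to 39.3 CPM (log2 fold change 2.61, edgeR adjusted p = 1.93e-07), and Vldlr, a lipoprotein receptor, from 1.87 to 15.2 CPM (log2 fold change 3.17, edgeR adjusted p = 0.000279). Of the transcription factors, 1 of 12 was called higher and 0 lower, which for higher calls is near the 8.02% of all genes. The called gene, Pparg, a nuclear receptor known to drive Fabp4 and Cd36 in adipocytes and macrophages, rose from 33.6 to 78.5 CPM (log2 fold change 1.35, edgeR adjusted p = 2.58e-05). Its part in the levels of Fabp4 and Cd36 was not tested. Of the lipid storage and release genes, 4 of 12 were called higher and 1 lower, Cpt1a, the gate of fatty acids into mitochondria (log2 fold change -0.30, edgeR adjusted p = 0.0109). The higher ones were Pdk4, a kinase that restrains glucose oxidation, at 74.8 to 112 CPM (log2 fold change 0.71, edgeR adjusted p = 0.000138), Pnpla2, the first lipase of stored triglyceride (log2 fold change 0.70, edgeR adjusted p = 0.0286), Lipe, a further lipase of stored fat (log2 fold change 0.66, edgeR adjusted p = 0.0103), and Plin2, a lipid droplet coat protein (log2 fold change 0.46, edgeR adjusted p = 0.0177).

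Of the membrane transport and activation genes, 1 of 13 was called higher in sinusoidal endothelial-like cells, Scarb1, a receptor for high density lipoprotein (94.0 to 138 CPM, log2 fold change 0.67, edgeR adjusted p = 0.000149), and 3 were called lower, the transporters Slc27a1, Slc27a2 and Slc27a5. Slc27a5 went from 5.13 to 1.86 CPM there and was called lower in hepatocyte-like cells as well (142 to 77.5 CPM), Slc27a2 was also called lower in pre-B-, NK- and plasmacytoid dendritic-like cells, and the hepatocyte markers summed to 2988 and 1555 CPM in sinusoidal endothelial-like cells. The part of hepatocyte RNA in these calls was not tested. Of the other intracellular lipid-binding proteins, 2 of 7 were called higher and 2 lower. The higher genes, Pmp2 (0.268 to 1.43 CPM) and Fabp9 (0.269 to 1.08 CPM), stayed near 1 CPM, were 2 of the 3 family neighbours of Fabp4 and were overlapped on the same strand by the gene model Gm37389, and the lower ones were Crabp2 and the third neighbour, Fabp12. In vascular endothelial-like cells 0 of the tested genes of the 5 lists was called, where 0.763% of all genes were.

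In hepatocyte-like cells, with a background of 48.1% called, the lipase partners had 4 of 13 tested genes higher and 7 lower, and the transport genes 2 of 11 higher and 7 lower, with a median log2 fold change of -0.59 against -0.057 over all genes. Apoc3, a secreted inhibitor of lipoprotein lipase activity, went from 1121 to 5419 CPM (log2 fold change 2.43, edgeR adjusted p = 2.85e-11). Of the storage genes 3 of 12 were called higher and 6 lower, the latter led by Pdk4, which fell from 166 to 45.6 CPM (log2 fold change -1.69, edgeR adjusted p = 1.01e-06). Of the transcription factors 3 of 11 were higher, Cebpb, Nr1h2 and Nr1h3. Macrophage-like cells had Acsl4, Apoc3 and Apoc2 called higher and Klf2 lower over the 5 lists, with 2.68% of all genes called, and monocyte-like cells Apoc3 and Nr1h3 higher, with 0.68% called. Apoc3 was called higher in 11 classes in all, the hepatocyte-like cells among them, with log2 fold changes of 1.20 to 2.43. The part of hepatocyte RNA in its calls outside the hepatocyte-like cells was not tested.

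Across 66 clusters and 15226 genes, the genes outside the 8 whose levels were most like each member were found by Pearson correlation of log2(CPM + 1) values, as a description over clusters that share their 12 libraries and depth. Fabp1 was most like Rgn (0.994), Hpd (0.994), Sult2a2 (0.993), genes of liver parenchyma, and Fabp2 most like Rgn (0.986), Sult2a2 (0.983), Ttc36 (0.983), with Fabp1 and Fabp2 at 0.987 to each other. Gpihbp1 was most like Clec4g (0.989), Gpr182 (0.986), Clec14a (0.984), and Fabp4 most like Kank3 (0.962), Clec14a (0.956), Clec4g (0.954). Fabp5, which was spread over endothelial- and hepatocyte-like cells, had lower values, with Cda (0.938), Pla2g12b (0.937), Depp1 (0.933). Cd36 followed Zfp366 (0.861), Adcy4 (0.848), Fmn1 (0.845). Lpl was most like Lrp1 (0.895), Gdf15 (0.892), Nr1h3 (0.863), and Fabp7 most like Kcna2 (0.908), Epb41l3 (0.906), Kcnj10 (0.906).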

How the data were processed

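Livers of 12 mouse pups were profiled by droplet 3′ single-cell RNA-seq, for which the labels name 10x v2 and the study's methods v3.1 chemistry. The authors deposited filtered gene by barcode matrices of raw UMI counts, made with Cell Ranger 7.0.0 on mm10 (per the labels), with no cell annotation. Barcodes were kept (206146 of 207537) if they held 500 to 50000 UMIs, no more than 50% of them mitochondrial. Groups were taken from the labels, with 6 mice each.

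Clusters were built with scikit-learn 1.9.0, igraph 0.11.9 and leidenalg 0.10.2 from 2000 variable genes, 20 principal components, 20 neighbours and Leiden resolution 2. The 8 genes and the listed pathway genes were left out, and the clusters were named by marker genes. The 72 clusters were rebuilt here, so names can differ from the study's. Called doublets were the cells most like simulated doublets of their library, and they were kept. Their share was set by the cell number, at 0.8% per 1000 cells, which gave 11.3% to 16.9% per library. It is not a measured doublet rate. Counts were summed per mouse and class (at least 10 cells), genes averaging 5 UMIs or more in a mouse were tested by edgeR 4.0.16 (quasi-likelihood, TMM, R 4.3.3, group as the only term) with Benjamini-Hochberg adjustment over all genes of a class, and a call was an adjusted p under 0.05. Effects in 2 classes were compared by edgeR on their paired sums. CPM values used the summed UMIs of the class. The tests were checked on counts simulated for sinusoidal endothelial-, monocyte- and hepatocyte-like cells. These held 16225, 11023 and 11202 genes, of which 200 were changed in each, evenly up and down. Of 100 genes with an absolute log2 fold change of 2, the tests called 98, 90 and 99 in that order. At an absolute log2 fold change of 1 they called 76, 53 and 79 of 100. Of the unchanged genes 10, 6 and 15 were called. With so few changed genes, the check does not cover data like those of the hepatocyte-like class, where 48.1% of all genes were called. Mice with the same replicate number were not treated as pairs, and whether they were related is not known.

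The 8 genes, the markers and the lists were chosen with earlier results of these data known. Of each list the text names at most 4 called genes per class and direction, those with the largest change (some are not reported here), and of likeness the 3 nearest genes among clusters of at least 200 cells. Alternatives included DESeq2 1.42.0 and limma 3.58.1 (voom). The fits within clusters (those with under 10 cells in some mice on the other mice), the comparison of effects between classes, and the settings that leave out doublet-rich clusters or anemic mice 2 and 3 were chosen after the data were seen. Promoters came from RefSeq and gene positions from GENCODE M21, both on GRCm38.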

Additional observations from a re-analysis of the deposited data

Results flagged for a closer look

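In 114 groups of 6 mice, 1 mouse stood far from the nearest of the others, relative to the range of its group, in 9 cases, where chance gives about 1 in 20. Control 3 was high for Fabp5 (1627 against 1209 to 1295 CPM) and Gpihbp1 (1387 against 1063 to 1138 CPM) in sinusoidal endothelial-like cells, and for Fabp5 in basophil or mast-like cells (386 against 122 to 187 CPM). Anemic mouse 2 was high for Fabp4 in neutrophil-like cells (2201 against 453 to 1057 CPM) and low for Lpl in hepatocyte-like cells (208 against 292 to 314 CPM). Anemic mouse 3 was high for Fabp4 in cholangiocyte-like (862 against 90.0 to 194 CPM), Fabp5 in smooth muscle-like (635 against 163 to 298 CPM) and Gpihbp1 in stellate or fibroblast-like cells (679 against 482 to 548 CPM). Anemic mouse 6 was high for Cd36 in vascular endothelial-like cells (1120.2 against 375 to 629 CPM).

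Some differences between anemic and control mice were of another size in sinusoidal endothelial-like cells than in other classes, by an edgeR test of the difference over the same mice. Beyond those on Fabp5 against vascular (0.97), hepatocyte- (1.78) and macrophage-like cells (1.47) and on Cd36 against macrophage- (1.83) and monocyte-like cells (2.33), the log2 fold change minus that of hepatocyte-like cells was -1.21, SE 0.29, edgeR adjusted p = 0.00219 for Fabp1, -1.08, SE 0.25, edgeR adjusted p = 0.0019 for Fabp2, 0.72, SE 0.20, edgeR adjusted p = 0.00741 for Cd36 and 0.57, SE 0.17, edgeR adjusted p = 0.0105 for Lpl. In that fit 41.4% of all genes differed, and the hepatocyte markers moved in sinusoidal endothelial-like cells as well, from a summed 2988 to 1555 CPM, and their part in the Fabp1 and Fabp2 values was not tested. Against monocyte-like cells it was 1.84, SE 0.21, edgeR adjusted p = 0.000287 for Fabp5.

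The 18182 cells that stayed unnamed enter no class. In them Fabp4 was at 886 ± 51.0 CPM (SD, n = 6, 804 to 952) in control and 1977 ± 304 CPM (1555 to 2347) in anemic mice. Fabp5 was at 447 ± 28 CPM (SD, n = 6, 393 to 471) in control and 876 ± 284 CPM (516 to 1306) in anemic mice. The groups did not overlap for either gene, nor for Fabp2, which was lower in anemic mice (means 15.7 and 4.99 CPM). They overlapped for Gpihbp1 (means 268 and 207 CPM), Fabp1, Fabp7, Cd36 and Lpl. Of the unnamed cells 47.0% were called doublets.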

How the results depend on the processing

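The number of pairs of a gene and a class called by edgeR was 21 of 111 (8 higher, 13 lower). It was 20 without TMM factors, 26 with DESeq2, 31 of 126 without a filter on low counts, 14 of 65 at a mean of at least 50 UMIs, 21 with Y-linked expression as a covariate, 20 at no more than 10% mitochondrial UMIs, 22 of 110 at Leiden resolution 1 and 29 of 126 with voom. It was 19 of 77 with called doublets left out, 15 of 96 among the cells of each mouse with fewer hepatocyte and sinusoidal endothelial marker UMIs, 20 of 84 without clusters mostly of 1 library or of doublets, and 24 without anemic mice 2 and 3. Leaving out 1 mouse gave 14 (without control 5) to 25 calls (without anemic mouse 5). With the replicate number as a block it was 23 and held all 21 calls. That block was not used in the main fits, as whether same-numbered mice were related is not known. Same-numbered mice correlated above 0.1 in at most 4 of 6 pairs in any class, and at most 3 of 6 mice correlated best with their own number. No chance level was set beside these values, so they cannot decide whether the mice were pairs. The choice matters for Cd36 in monocyte-like cells, which was called with the block (log2 fold change -1.50, edgeR adjusted p = 0.00063). Fabp4 in sinusoidal endothelial-like cells had a log2 fold change of 1.72 without anemic mice 2 and 3, 1.84 with the block and 1.79 to 1.93 without 1 mouse.

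Signs turned for Fabp5 in neutrophil-like cells, to -0.23 with called doublets left out, -0.020 in the cells with fewer of those marker UMIs and -0.11 without doublet-rich clusters, and for the uncalled Fabp5 in hepatocyte-like cells, to -0.097 without TMM, -0.014 at the higher count filter and -0.21 at no more than 10% mitochondrial UMIs. The latter was called higher at resolution 1 (0.40), without anemic mice 2 and 3 (0.33) and with voom (0.25). The causes were not tested. By edgeR, Fabp1 in pre-B- (adjusted p 0.052) and Fabp2 in vascular endothelial-like cells (adjusted p 0.0708) were not called with the Y-linked covariate, where Cd36 in macrophage-like cells was (adjusted p 0.0372). Fabp1 in hepatocyte- and pre-B-like cells was not called at no more than 10% mitochondrial UMIs (adjusted p 0.5 and 0.0502), nor Fabp2 in hepatocyte-, macrophage- and NK-like cells at resolution 1 (adjusted p 0.834, 0.0739 and 0.0803). Leaving out 1 mouse, Fabp2 was not called in hepatocyte-like cells without control 5 or anemic mouse 1 (adjusted p 0.0514 to 0.0527), in vascular endothelial-like cells without control 2, 4 or 5 or anemic mouse 1, 2, 4 or 6 (adjusted p 0.0521 to 0.0797), in stellate or fibroblast-like cells without control 3 or 5 or anemic mouse 1 or 4 (adjusted p 0.0517 to 0.0953), in B-like cells without control 1 or 5 (adjusted p 0.052 to 0.0631) and in neutrophil-like cells without control 5 (adjusted p 0.0573), where Fabp5 was lost too (adjusted p 0.0573). Cd36 was called in monocyte-like cells without anemic mouse 2, 4 or 6 (adjusted p 0.0268 to 0.0388) and in macrophage-like cells without anemic mouse 2 (adjusted p 0.041). Low counts limited Fabp2 and Fabp7, which could not be tested in 4 and 8 classes.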

Other observations

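Ratios of UMIs between members within a class describe how far they moved apart. In sinusoidal endothelial-like cells the ratio of Fabp4 to Gpihbp1 UMIs was 3.45 (range 3.16 to 3.79) in control and 9.56 (range 6.83 to 11.0) in anemic mice. In stellate or fibroblast-like cells it was 3.49 (range 3.10 to 3.99) in control and 9.61 (range 7.06 to 13.3) in anemic mice, and in neutrophil-like cells 3.74 (range 2.93 to 5.02) in control and 10.9 (range 5.35 to 12.8) in anemic mice. In vascular endothelial-like cells it was 11.0 (range 8.23 to 13.3) in control and 11.9 (range 8.92 to 14) in anemic mice. The ratio of Fabp4 to Fabp5 UMIs in sinusoidal endothelial-like cells was 2.99 (range 2.78 to 3.34) in control and 2.56 (range 2.09 to 3.66) in anemic mice. In vascular endothelial-like cells that ratio was 8.32 (range 5.55 to 11.0) in control and 6.06 (range 4.06 to 9.94) in anemic mice.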
